A study of Mus musculus with 6 samples.

Results

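The genes described are the xenobiotic and alcohol metabolism enzymes of mouse intestinal epithelial monolayers treated with tunicamycin. They were chosen by symbol: cytochromes P450 of families 1 to 4 (CYP), UDP-glucuronosyltransferases (UGT), glutathione S-transferases (GST), sulfotransferases (SULT), carboxylesterases (CES), alcohol dehydrogenases (ADH) and aldehyde dehydrogenases (ALDH) with at least 100 UMIs (unique molecular identifiers, each a counted RNA molecule) over all cells. Of 27998 genes in the deposited table, 189 matched the symbols and 69 reached the minimum and were kept. These comprised 24 CYP, 4 UGT, 14 GST, 4 SULT, 6 CES, 4 ADH and 13 ALDH genes. A further 118 matching genes lay below the minimum. The rule also leaves out Aldh18a1 and Aldh1l2. Just inside the minimum lay Adh4 with 110 UMIs and Gstm1 with 114, and just outside lay Cyp2b9 with 92 and Gstm2 with 80. Since the minimum is a sum over all cells, 6 members (Ces2b, Ces2d-ps, Cyp2d22, Ugt2b1, Gstm1 and Adh4) would not have reached it at the rate of the group in which they were lowest.

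These enzymes act in sequence on drugs, plant compounds, bile acids, steroids and alcohols. CYP, ADH, ALDH and CES enzymes oxidise or hydrolyse a molecule, and UGT, GST and SULT enzymes then attach glucuronic acid, glutathione or sulfate, which makes it easier to export. CYP, UGT and CES proteins sit in the membrane or lumen of the endoplasmic reticulum (ER), while GST, SULT and ADH proteins are mainly cytosolic. In the gut they are best known in absorptive enterocytes, which meet ingested chemicals first.

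The 6 single-cell RNA libraries came from differentiated monolayers grown from intestinal spheroids of mice that join the allele Rosa26-floxed STOP-Cas9 with the strain cmv-cre B6. Every group, controls included, carries that background. Each has 2 libraries, called biological replicates in the series text. The groups were DMSO vehicle, tunicamycin at 0.5 µg/ml for 13 h after 12 h in DMSO, and tunicamycin at 0.5 µg/ml for 25 h. Tunicamycin blocks N-linked glycosylation and so causes ER stress. The tissue label reads small intestine while the growth protocol names colonic spheroids. The labels give neither ages nor the number of animals. Cells carry the authors' class of enterocyte, goblet or tuft.

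After filtering, 5026 of 5122 cells remained, with 9432005 to 19539013 UMIs per library. Kept cells numbered 1178 and 1165 in the DMSO libraries, 780 and 821 after 13 h, and 537 and 545 after 25 h. The part of this difference in the results below was not tested. Marker genes were checked in each class. Of 15 enterocyte markers, Fabp1 had no UMI in 5 of the 6 enterocyte sums. The summed markers in enterocytes held 6577 and 6591 CPM (each count relative to the total of its sum, here without TMM scaling) in DMSO, 4889 and 4713 after 13 h, and 3871 and 4018 after 25 h. Of the 14 enterocyte markers tested in enterocytes, 12 were lower at 13 h and 13 at 25 h. The part of this decline in the results below was not tested. Goblet markers summed to between 2370 and 3947 CPM in enterocytes and to between 79803 and 197536 in goblet cells. Tuft markers were nearly absent from enterocytes, at 1 to 3 CPM, and reached only 85 to 809 in the class named tuft. There Il25 and Sh2d6 had no UMI in either DMSO library. In DMSO that class held 87 and 85 CPM of tuft markers, 66 and 148 of enteroendocrine markers, and 2691 and 6845 of goblet markers. After tunicamycin the ranges were 178 to 809, 18 to 62, and 431 to 4108. The name tuft is therefore used only as the authors' label. Mitochondrial UMIs made up 9.53% and 9.41% of enterocyte UMIs in the DMSO libraries, 9.05% and 9.34% after 13 h, and 8.30% and 7.95% after 25 h. Because counts were summed over a class, a lower level cannot be split by the sums alone into fewer expressing cells and less RNA per cell.

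The promoters of 4 members are shown, chosen after their values were seen: the 3 Gstp genes, which lie beside each other on chromosome 19 and differ in response below, and Cyp1a1, the classical target of the aryl hydrocarbon receptor. Each is the 250 bases before the RefSeq start on GRCm38.p6, read 5′ to 3′ on the gene's strand. Gstp1 (chr19:4037913-4038162, minus strand), Gstp2 (chr19:4042222-4042471, minus strand), Gstp3 (chr19:4059448-4059697, minus strand) and Cyp1a1 (chr9:57697363-57697612, plus strand) read as follows. Capitals mark GCGTG, the core of the dioxin response element bound by the aryl hydrocarbon receptor, and TGANTCAGC, a site type of the factors that bind antioxidant genes, either strand.
Gstp1: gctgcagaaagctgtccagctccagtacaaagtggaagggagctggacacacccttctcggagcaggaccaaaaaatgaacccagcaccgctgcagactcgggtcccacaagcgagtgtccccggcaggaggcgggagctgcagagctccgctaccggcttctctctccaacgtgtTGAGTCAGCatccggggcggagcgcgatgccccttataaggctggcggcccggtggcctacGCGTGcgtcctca
Gstp2: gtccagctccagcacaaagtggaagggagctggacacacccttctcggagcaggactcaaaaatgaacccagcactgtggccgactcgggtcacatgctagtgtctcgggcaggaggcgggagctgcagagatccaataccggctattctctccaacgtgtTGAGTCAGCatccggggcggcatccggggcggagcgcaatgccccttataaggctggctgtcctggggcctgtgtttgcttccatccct
Gstp3: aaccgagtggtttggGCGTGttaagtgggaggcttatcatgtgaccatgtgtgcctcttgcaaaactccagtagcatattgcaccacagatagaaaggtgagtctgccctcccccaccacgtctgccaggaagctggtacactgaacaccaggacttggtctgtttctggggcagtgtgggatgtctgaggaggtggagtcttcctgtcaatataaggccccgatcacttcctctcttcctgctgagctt
Cyp1a1: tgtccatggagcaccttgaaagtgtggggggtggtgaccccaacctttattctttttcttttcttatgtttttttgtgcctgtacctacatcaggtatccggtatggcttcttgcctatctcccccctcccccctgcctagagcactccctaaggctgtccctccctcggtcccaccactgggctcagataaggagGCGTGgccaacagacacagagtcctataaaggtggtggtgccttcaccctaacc
The Gstp1 and Gstp2 promoters were 78.5% identical to each other, while Gstp3 was 50.7% identical to Gstp1 and 51.9% to Gstp2. TGANTCAGC, a motif added after these promoters had been read, occurred in Gstp1 and Gstp2 and in 1.02% of all 32817 promoters of the same length, counting both strands. GCGTG occurred in 17 of the 59 members that have a RefSeq promoter, among them Cyp1a1, Gstp1 and Gstp3, and in 28.1% of all promoters. The antioxidant response element TGACNNNGC occurred in 5 of the 59 members (Adh6a, Aldh9a1, Cyp4f14, Gsta3 and Gstm5) and in 10.2% of all promoters. TGATGNAA, the composite site of ATF4 and CHOP, occurred in none of the 59 and in 3.45% of all promoters, and the longer ER stress response element in none and in 0.113%. CAAAGTCCA, an HNF4 type site, occurred in Cyp2c65 and Cyp2c68 and in 0.384% of all promoters. Some sequences fit both TGACNNNGC and TGANTCAGC, but those in Gstp1 and Gstp2 fit the latter alone. Members were counted as genes with a match in any of their promoters, while the shares of all promoters count each promoter singly. A match is a match of letters only.

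In enterocytes most members fell. Of 68 tested (all but Cyp1b1), 49 were lower and 4 higher at 13 h, where 23.8% of all 11145 tested genes were lower and 23.8% higher. At 25 h, 39 were lower and 11 higher, against 24.2% and 26.1% of all genes. Without DMSO replicate 1, or without 25 h replicate 2, 7 were higher at 25 h. Calls are from edgeR on sums per library, with Benjamini-Hochberg adjusted p under 0.05 over all genes. The median log2 fold change of the members was −0.48 at 13 h and −0.44 at 25 h, and that of all tested genes 0.01 and 0.03. Without the members that need their high group to reach the minimum, 43 of 62 were lower at 13 h and 35 of 62 at 25 h, with medians of −0.41 and −0.39. As a share of all enterocyte UMIs the members held 1.03% and 1.06% in DMSO, 0.838% and 0.841% after 13 h, and 0.799% and 0.758% after 25 h. The ranges of the 3 groups did not overlap.

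**Figure D1:**
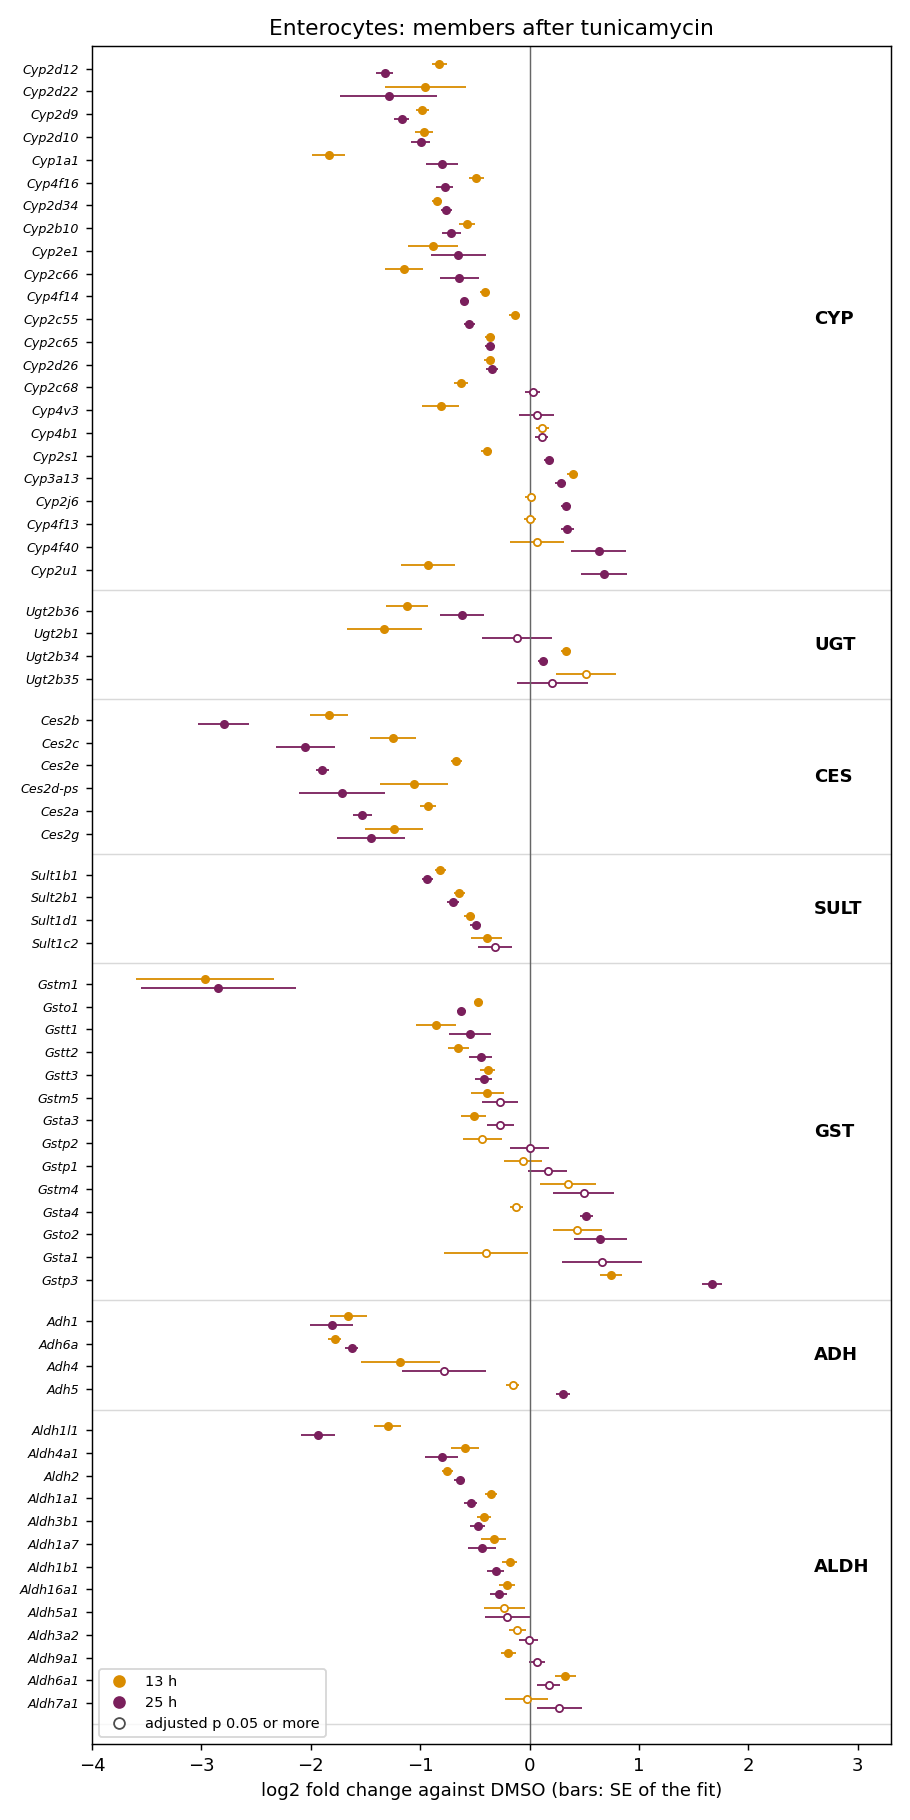
Log2 fold change against DMSO (x axis) of the 68 members tested in enterocytes, by family, at 13 h (orange) and 25 h (purple), with the SE of the fit as bars and open points where the adjusted p was 0.05 or more. All 6 carboxylesterases lie left of 0 at both times, and Gstp3 lies farthest right at 25 h, at 1.67.

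By place in the cell, the ER enzymes had 26 of 34 lower and 2 higher at 13 h, and 21 lower and 7 higher at 25 h. Without Ces2b, Ces2d-ps, Cyp2d22 and Ugt2b1, which reach the UMI minimum only through their high group, 22 of 30 were lower at 13 h and 18 at 25 h. Cytosolic enzymes had 19 of 27 lower and 1 higher at 13 h, and 14 lower and 4 higher at 25 h, or 17 and 13 of 25 lower without Gstm1 and Adh4. The mitochondrial ALDH genes had 3 of 6 lower at both times and 1 higher at 13 h. Of all genes, 23.8% were lower and 23.8% higher at 13 h, and 24.2% and 26.1% at 25 h. The same shares stand beside the enterocyte counts of each family below. Between 13 h and 25 h, 12 of the 68 members were higher and 11 lower at the later time, where 10.4% and 10.9% of all genes were. Without 13 h replicate 1 the lower count was 5, and without 25 h replicate 2 it was 7.

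Cytochromes P450 insert oxygen into fats, steroids and drugs. In enterocytes 18 of 23 tested were lower and 1 higher at 13 h, and 14 lower and 6 higher at 25 h, or 17 and 13 of 22 lower without Cyp2d22. Of all genes, 23.8% were lower and 23.8% higher at 13 h, and 24.2% and 26.1% at 25 h. The 6 CYP genes higher at 25 h were near that share. Cyp2c55, which converts arachidonic acid and drugs, was the most abundant member, with 21.8% to 28.6% of all member UMIs in enterocytes. It stood at 2538 and 2565 CPM (here and below from scaled sums) in DMSO, 2281 and 2368 CPM at 13 h, and 1827 and 1658 CPM at 25 h. The 3 groups did not overlap, with a log2 change of −0.13 ± 0.05 (SE; adjusted p = 0.036) at 13 h and −0.55 ± 0.05 (adjusted p = 4.8e-07) at 25 h. The 13 h call was lost under 6 of 15 alternatives. Its relative Cyp2c65 stood at 414 and 425 CPM in DMSO, 332 and 321 CPM at 13 h, and 335 and 318 CPM at 25 h (−0.36 ± 0.05 at both times), with every treated library below both controls.

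The Cyp2d genes, relatives of the human drug-metabolising CYP2D6, were lower at both times in each of the 5 that reach the UMI minimum at the rate of their lowest group. The remaining one, Cyp2d22, was also called lower, but reaches the minimum only through its DMSO level. Cyp2d9 stood at 94.1 and 90 CPM in DMSO, 49.7 and 43.8 CPM at 13 h, and 39.4 and 42.3 CPM at 25 h. The fit gave −0.98 ± 0.06 and −1.17 ± 0.07, and all 4 treated libraries lay below both controls. Cyp2d12 went from 49.3 and 46.7 CPM to 27.7 and 26.6 CPM, then to 19.5 and 18.9 CPM, and was lower again at 25 h than at 13 h (log2 change −0.50, adjusted p = 0.00088). Cyp2d34, the most abundant of them, fell by 0.85 and 0.76 on the log2 scale, and Cyp2d26 by 0.36 and 0.34. Part of the Cyp2d9 signal could be shared, since 15.3% of its 90-base windows in the last 500 transcript bases also occur in other genes.

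Fatty acid hydroxylases of the Cyp4f group split. Cyp4f14, which inactivates leukotrienes, stood at 990 and 1022 CPM in DMSO, 768 and 747 CPM at 13 h, and 672 and 660 CPM at 25 h, a change of −0.41 ± 0.04 and −0.59 ± 0.04. Its relative Cyp4f13 stood at 66.6 and 69.9 CPM in DMSO and 69.7 and 67.3 CPM at 13 h. It then rose to 90.3 and 83.4 CPM at 25 h (0.35 ± 0.06, adjusted p = 0.00018). Cyp4f16 fell at both times. Cyp4f40, at 2.52 and 4.09 CPM in DMSO, 3.86 and 3.08 CPM at 13 h, and 4.78 and 5.42 CPM at 25 h, was called higher at 25 h (adjusted p = 0.0498) and lost the call under 11 alternatives.

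Cyp2s1 and Cyp2u1 were lower at 13 h and higher at 25 h, while Cyp1a1 was lower at both times. Cyp2s1, which acts on retinoids, stood at 198 and 193 CPM in DMSO, 151 and 147 CPM at 13 h, and 213 and 228 CPM at 25 h, so that it was lower at 13 h (−0.39 ± 0.05) and higher at 25 h (0.18 ± 0.05, adjusted p = 0.0075). Cyp2u1 was at a low level: 2.99 CPM in each DMSO library, 1.48 and 1.65 CPM after 13 h, and 5.16 and 4.5 CPM after 25 h. Calls at 25 h were lost under 3 alternatives for Cyp2s1 and 4 for Cyp2u1. Cyp1a1 is described here after its values were seen. It stood at 14.8 and 17.3 CPM in DMSO, 5.18 and 3.84 CPM at 13 h, and 8.69 and 9.69 CPM at 25 h. The 3 groups did not overlap, and the rise from 13 h to 25 h passed as well (1.04 ± 0.19, adjusted p = 0.0014). In the DMSO libraries 10 cells held 29.4% and 26.1% of the Cyp1a1 UMIs of about 1000 enterocytes.

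Cyp3a13, a member of the main drug-oxidising subfamily, rose at both times, from 140 and 151 CPM to 190 and 191 CPM and then 176 and 177 CPM (0.40 ± 0.05 and 0.28 ± 0.05). Cyp2j6 stood at 174 and 178 CPM at 13 h against 174 and 175 CPM in DMSO, then reached 227 and 214 CPM (0.33 ± 0.05). Cyp1b1 had 188 UMIs in kept cells, of which 159 came from the few cells of the class named tuft, 27 from enterocytes and 2 from goblet cells, and it was not tested in enterocytes.

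Carboxylesterases cleave ester and amide bonds of prodrugs and fats. The 6 members are Ces2 genes that lie on one strand of chromosome 8 between 104734003 and 104969537 (GRCm38), a stretch that also holds Ces2f, which with 33 UMIs is below the minimum. Ces2a, Ces2c, Ces2e and Ces2g, which reach the minimum at the rate of their lowest group, were lower at both times, with a median of −1.08 at 13 h and −1.71 at 25 h. Ces2b and Ces2d-ps were called lower as well, but reach the minimum only through their DMSO level. Over all 6 the medians were −1.15 and −1.80. Ces2e, the most abundant, stood at 124 and 127 CPM in DMSO, 78.2 and 79.7 CPM at 13 h, and 33.2 and 34.2 CPM at 25 h. It fell by 0.67 and then 1.89 on the log2 scale (SE 0.05 and 0.06), and by 1.23 from 13 h to 25 h (adjusted p = 2.3e-08). Ces2a went from 33 and 32.6 CPM to 17.3 and 17.2 CPM, and then 11.7 and 11.1 CPM. Ces2b, at 8.28 and 8.55 CPM in DMSO, had 2.38 and 2.33 CPM at 13 h and 1.26 and 1.15 CPM at 25 h, a change of −2.80 ± 0.23 at 25 h. Ces2a, Ces2b and Ces2e were also lower at 25 h than at 13 h. Ces2c shares 22.4% and Ces2d-ps, an annotated pseudogene, 38.4% of end windows with other genes, so their reads are uncertain.

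Alcohol dehydrogenases oxidise alcohols and retinol, and the 4 members lie together on chromosome 3. The most abundant was Adh6a, which held the largest fall at 13 h among members above 20 CPM. It stood at 517 and 570 CPM in DMSO, 166 and 151 CPM at 13 h, and 174 and 178 CPM at 25 h. This was a log2 change of −1.78 ± 0.06 (adjusted p = 1.4e-11) and −1.63 ± 0.06 (adjusted p = 4.3e-11), and the change between 13 h and 25 h did not pass (adjusted p = 0.096). Adh1, which oxidises ethanol and retinol, fell from 19.1 and 18.9 CPM to 7.4 and 4.74 CPM and then 3.9 and 6.8 CPM (−1.66 ± 0.17 and −1.81 ± 0.20). Adh4 had 2.23 and 1.71 CPM in DMSO, 1.07 and 0.677 CPM at 13 h, and 1.51 and 0.807 CPM at 25 h. Its call at 13 h was lost under 3 alternatives, and it reaches the UMI minimum only through its DMSO level, which favours a lower value after treatment. Adh5, the formaldehyde and nitrosoglutathione dehydrogenase found in most tissues, went the other way late, from 44 and 46.5 CPM in DMSO to 55.4 and 56.4 CPM at 25 h (0.30 ± 0.06).

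Aldehyde dehydrogenases remove the aldehydes that alcohol oxidation and lipid damage leave. In enterocytes 9 of 13 were lower and 1 higher at 13 h, and 8 lower and none higher at 25 h. Of all genes, 23.8% were lower and 23.8% higher at 13 h, and 24.2% and 26.1% at 25 h. Aldh1a1, a retinaldehyde dehydrogenase, stood at 340 and 304 CPM in DMSO, 250 and 256 CPM at 13 h, and 227 and 216 CPM at 25 h (−0.35 ± 0.05 and −0.54 ± 0.06). The mitochondrial acetaldehyde enzyme Aldh2 fell from 259 and 248 CPM to 152 and 148 CPM and stood at 156 and 169 CPM at 25 h (−0.75 ± 0.05 and −0.64 ± 0.05). Aldh1l1, a folate enzyme named here after its values were seen, fell from 15.1 and 17.2 CPM to 6.57 and 6.54 CPM and to 4.28 and 4.15 CPM (−1.30 and −1.93). Aldh1b1 stood at 54.4 and 50 CPM in DMSO, 44.2 and 47.9 CPM at 13 h, and 44.7 and 39.8 CPM at 25 h, and Aldh9a1 at 35.3 and 33.1, 29.4 and 30.4, and 35.1 and 36.6 CPM. Both were called lower at 13 h (−0.18 and −0.19) and lost that call under 6 and 5 alternatives. Aldh1b1 was lower at 25 h as well (−0.31), a call lost under 2. Aldh6a1, of valine breakdown, was the single ALDH member that was higher. It stood at 13.7 and 12.8 CPM in DMSO, 16.9 and 16.3 CPM at 13 h (0.33 ± 0.10), and 15.7 and 14.2 CPM at 25 h, and lost the 13 h call under 4 alternatives. The genes that the rule leaves out went up: Aldh18a1, of proline synthesis, from 4.58 and 5.80 CPM to 27.2 and 31.1 CPM and then 24.0 and 23.6 CPM, and Aldh1l2, the mitochondrial folate enzyme, from 0.352 and 0.550 CPM to 1.48 and 2.78 CPM and then 2.01 and 2.54 CPM.

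Sulfotransferases add sulfate to steroids and phenols. All 4 were lower at 13 h and 3 at 25 h in enterocytes, where 23.8% and 24.2% of all genes were lower. Sult1b1 went from 369 and 372 CPM to 215 and 206 CPM and then 198 and 190 CPM (−0.81 ± 0.05 and −0.93 ± 0.05). Sult2b1, which sulfates cholesterol, stood at 157 and 155 CPM, 104 and 95.5 CPM, and 97.7 and 94 CPM. Sult1d1 went from 160 and 170 CPM to 112 and 114 CPM and 122 and 113 CPM. In all 3 the treated libraries lay below both controls, and the share of all genes doing so was not counted. None of the 4 differed between 13 h and 25 h at the threshold.

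Glucuronosyltransferases gave a mixed picture. Ugt2b34, by far the most abundant of the 4, stood at 349 and 362 CPM in DMSO, 446 and 451 CPM at 13 h, and 386 and 390 CPM at 25 h. It rose at 13 h (0.33 ± 0.04, adjusted p = 2.4e-05) and came down between 13 h and 25 h (−0.21 ± 0.04), while its 25 h call against DMSO (0.13 ± 0.04, adjusted p = 0.03) was lost under 12 alternatives. Ugt2b36 went from 7.63 and 8.06 CPM to 3.04 and 4.14 CPM and then 6.17 and 4.15 CPM, lower at both times (−1.12 and −0.61), and its 25 h call was lost under 3 alternatives. Ugt2b1 was called lower at 13 h alone, but reaches the UMI minimum only through its high groups. Ugt2b35, at 1.59 and 2.81 CPM in DMSO, 2.96 and 3.31 CPM at 13 h, and 2.90 and 2.19 CPM at 25 h, did not pass at either time. The Ugt1a genes share one set of end exons. The 9 of them hold 88 UMIs in all and share 43.1% to 100% of end windows, so none is a member.

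Glutathione S-transferases had 7 of 14 lower and 1 higher at 13 h, and 5 lower and 3 higher at 25 h, or 6 and 4 of 13 lower without Gstm1. Of all genes, 23.8% were lower and 23.8% higher at 13 h, and 24.2% and 26.1% at 25 h. The GST counts at 25 h were not far from these shares. Gsto1, a glutathione-dependent reductase and the second most abundant member, stood at 1724 and 1719 CPM in DMSO, 1246 and 1243 CPM at 13 h, and 1101 and 1132 CPM at 25 h (−0.47 ± 0.04 and −0.62 ± 0.04). All 3 Gstt genes were lower at both times, with Gstt3 going from 40.2 and 38.4 CPM to 28.1 and 30.7 CPM at 25 h. Gsta4, which clears the lipid peroxidation product 4-hydroxynonenal, stood at 135 and 146 CPM in DMSO, 122 and 137 CPM at 13 h, and 208 and 195 CPM at 25 h, higher at 25 h only by the threshold (0.52 ± 0.06). Gsto2, at 2.52 and 2.93 CPM in DMSO, 4.27 and 3.16 CPM at 13 h, and 3.78 and 4.73 CPM at 25 h, was called higher at 25 h and lost it under 8 alternatives. Gstm1, just inside the minimum, stood at 1.12 and 3.36 CPM in DMSO and 0.329, 0.226, 0.378 and 0.231 CPM in the treated libraries. Both genes just outside the minimum failed to pass at either time: Gstm2 at 1.41 and 1.1 CPM, 0.575 and 0.752 CPM, and 0.755 and 0.346 CPM, and Cyp2b9 at 1.29 and 1.28 CPM, 0.740 and 1.43 CPM, and 1.01 and 1.04 CPM.

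Gstp3 had the highest fold change of the members called higher in enterocytes. It stood at 19.9 and 22.8 CPM in DMSO, 34.5 and 36.9 CPM at 13 h, and 61.1 and 74.1 CPM at 25 h, a change of 0.74 ± 0.10 (adjusted p = 2.3e-05) and 1.67 ± 0.09 (adjusted p = 3.7e-09). The 3 groups did not overlap. Its neighbours were not called in enterocytes. Gstp1 stood at 113 and 183 CPM in DMSO, 164 and 121 CPM at 13 h, and 183 and 150 CPM at 25 h, and Gstp2 at 78.6 and 131, 87.9 and 67.6, and 115 and 94.6 CPM. For both genes the groups overlapped. Gstp1 and Gstp2 share 69.5% and 48.5% of end windows with another gene, each other included, so their split is uncertain. Their sum was 191 and 314 CPM in DMSO, 251 and 188 CPM at 13 h, and 298 and 244 CPM at 25 h, which does not narrow the spread.

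**Figure D2:**
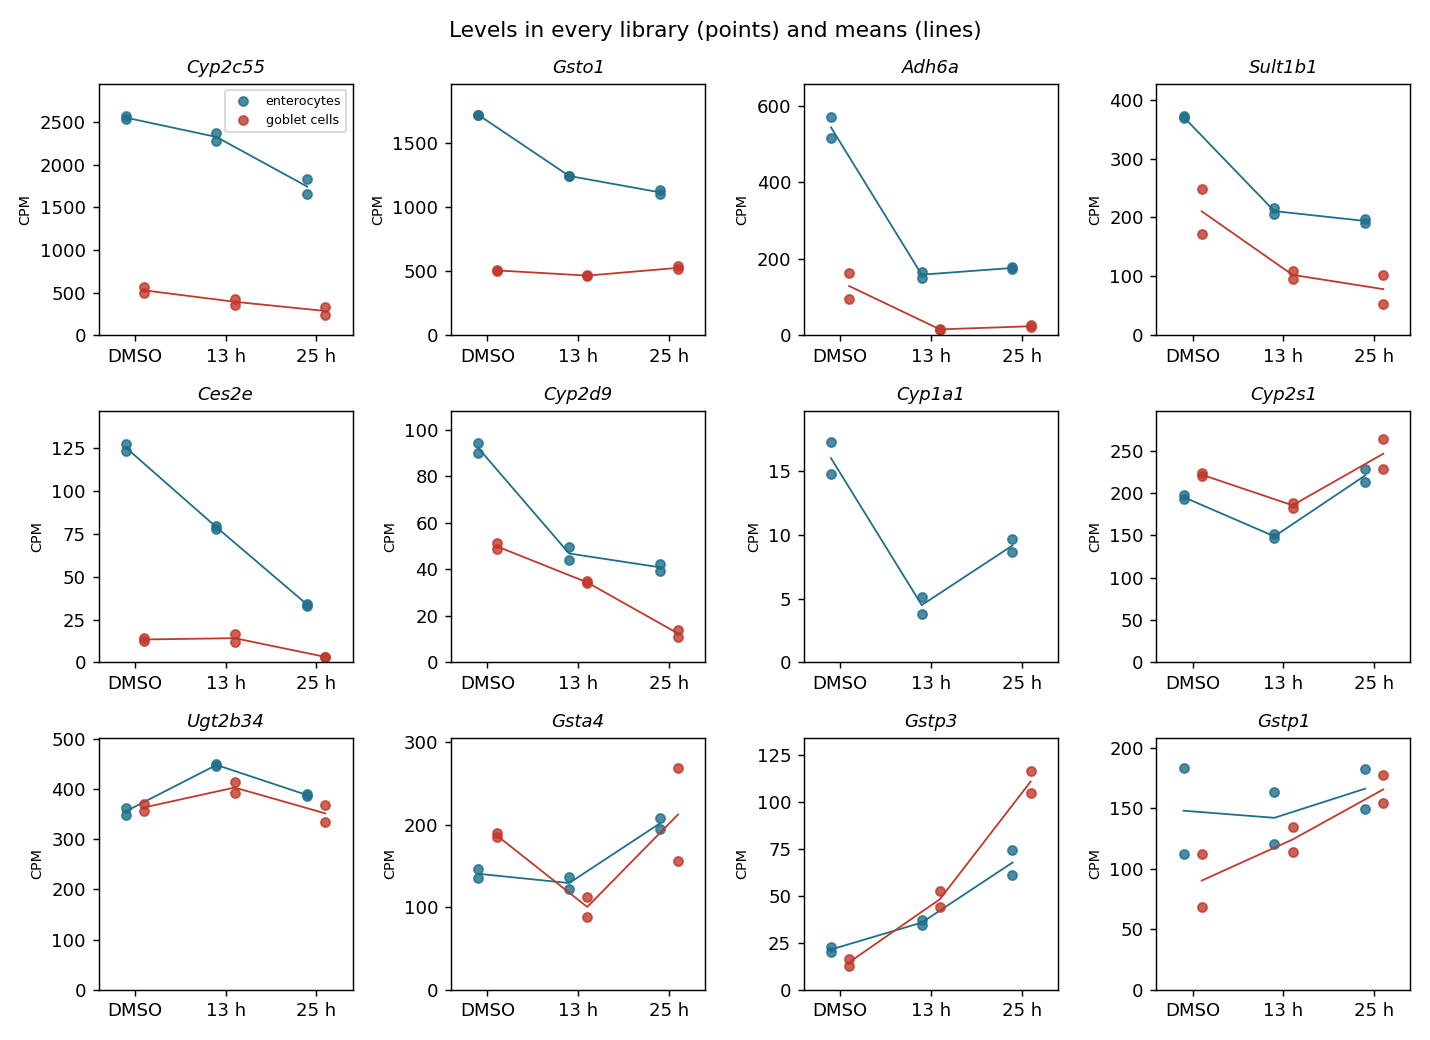
CPM (y axes, linear, from 0) of 12 members in each of the 6 libraries at DMSO, 13 h and 25 h, in enterocytes (blue) and goblet cells (red), with points for libraries and lines through group means. Adh6a stands at 517 and 570 CPM in DMSO enterocytes and no higher than 178 CPM after tunicamycin, and Cyp1a1 has no goblet points because it was not tested there.

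Among 39 members at 20 CPM or more, 3 (Gsta1, Gstp1 and Gstp2) were more than 1.5-fold apart between replicates of a group. Gsta1 stood at 16.5 and 50 CPM in DMSO, 24.8 and 25.4 CPM at 13 h, and 33.5 and 70.2 CPM at 25 h. Its UMIs were concentrated in few cells. In DMSO replicate 2, 10 of 1037 enterocytes held 67.4% of its UMIs and a single cell held 198, while in replicate 1, 10 cells held 34.9% and the highest held 26. The share of enterocytes with a Gsta1 UMI at equal depth was 5.13% and 6.35% in DMSO and 10.8% and 13.8% at 25 h, closer between replicates than the CPM. Of its end windows 77.9% also occur in Gsta2 or a related gene, so the value may count both. In the class named tuft, Gsta1 stood at 372 and 538 CPM (unscaled) in DMSO, 617 and 73.1 after 13 h, and 64.9 and 709 after 25 h. Sums of other members also rested in part on few cells. At 25 h, 10 enterocytes held 36.4% and 33.2% of Cyp2d9 UMIs, against 11.7% and 10.6% in DMSO. For Gsta4 the values were 22.4% and 27.2% against 15.4% and 22.0%, and for Adh6a 25.9% and 19.3% against 7.45% and 6.85%. Those 10 came from 426 and 447 enterocytes at 25 h, and from 1046 and 1037 in DMSO.

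Detection was compared at a depth of 5000 UMIs drawn per cell, and shallower cells (2 to 13 enterocytes and 2 to 8 goblet cells per library) were left out. Bars in the plot of detection are 95% exact binomial (Clopper-Pearson) intervals, which cover counting error only. Cyp2c55 and Gsto1 were found in nearly every enterocyte, Cyp2c55 in 98.6% and 99.1% in DMSO and in 95.0% of both 25 h libraries. Adh6a was found in 64.5% and 71.0% of enterocytes in DMSO, 37.2% and 33.3% after 13 h, and 34.4% and 36.8% after 25 h, and without thinning in 82.4% and 86.1% against 56.6% and 60.9% at 25 h. Ces2e went from 36.2% and 39.6% to 28.2% and 29.2%, and then 16.0% and 14.2%. For Gstp3 the share rose with the level, from 8.91% and 9.86% to 13.0% and 16.2%, and then 23.1% and 25.3%. Ces2e was also found in 5.15% and 3.92% of DMSO goblet cells at the same depth, and whether this was stray RNA was not tested. The median depth before thinning in DMSO was 15652 and 14757 UMIs in enterocytes and 11664 and 11573 in goblet cells.

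**Figure D3:**
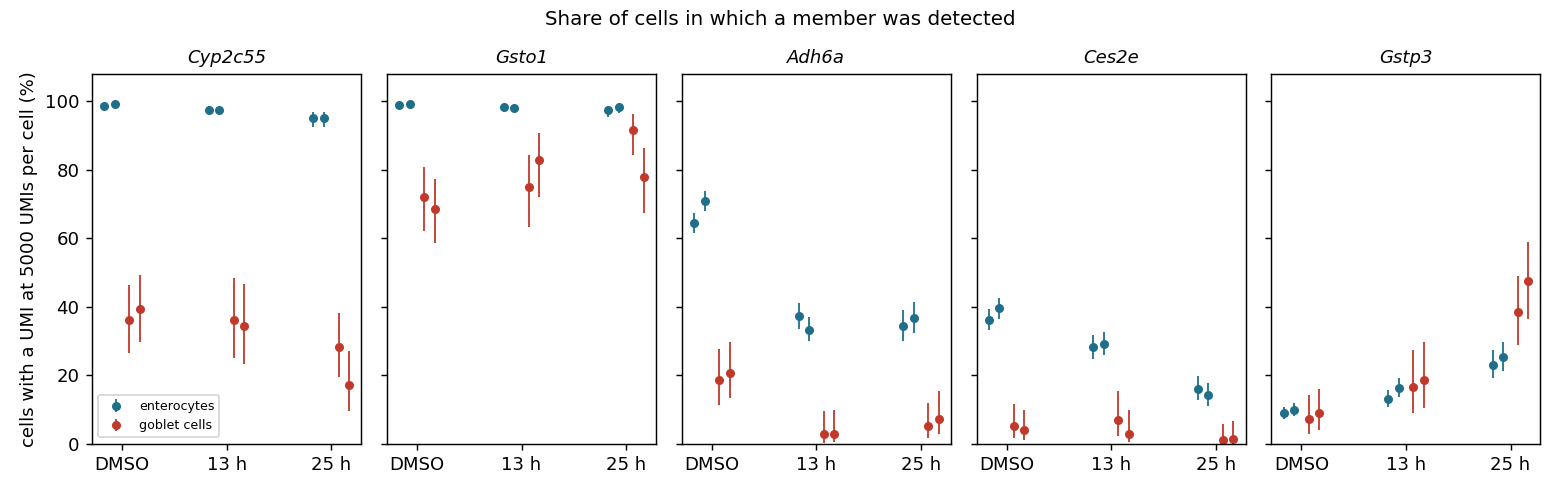
Share of cells with at least 1 UMI of 5 members (y axis, percent, cells thinned to 5000 UMIs) in each library, for enterocytes (blue) and goblet cells (red), with 95% exact binomial bars. Adh6a falls from 64.5% and 71.0% of DMSO enterocytes to 37.2% and 33.3% at 13 h, while Gstp3 climbs to 38.5% and 47.6% of goblet cells at 25 h.

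Goblet cells secrete mucus and carried fewer of these transcripts. The members held 0.475% and 0.524% of goblet UMIs in DMSO, 0.411% and 0.387% after 13 h, and 0.423% and 0.353% after 25 h. Class labels may have been made from these genes, so levels between classes are a description. Of 21 members at 100 CPM or more in DMSO enterocytes, 17 were lower in goblet cells, and the ratio ran from 0.114 for Ces2e to 1.42 for Gsta4 with a median of 0.647. These 21 were picked by their enterocyte level, which favours ratios below 1, so the count, median and range hold for them alone. Cyp2d12, for example, was left out, at 116 and 175 CPM (unscaled) in DMSO goblet cells and 48.2 and 45.7 in DMSO enterocytes. Cyp2c55 had a ratio of 0.220 and Gsto1 of 0.313, while Cyp2d34, Cyp2s1 and Gsta4 were above 1. Ugt2b34 had 1.08, but 0.968 on total UMIs without TMM scaling, which gave 18 members lower and a median of 0.579. Free RNA reaches every droplet, and the goblet level of Ces2e cannot be told apart from it. Its part in the goblet levels and responses of other members high in enterocytes, such as Cyp2c55, Adh6a and Gsto1, was not tested. Goblet cells were 8.91% and 9.36% of cells in DMSO and 18.2% and 15.8% at 25 h.

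In goblet cells 45 members were tested. At 13 h, 18 were lower and 2 higher, against 11.5% and 10.8% of all 7839 genes, and at 25 h, 19 were lower and 4 higher, against 16% and 15.8%. DESeq2 gave 8 lower at 13 h, and 2 were higher at 25 h without DMSO replicate 1. The median log2 change was −0.44 and −0.43. Total-UMI scaling shifted the median of all genes by 0.16 at 13 h and 0.13 at 25 h and left 14 lower and 3 higher, then 17 and 6. With it the higher share of all calls went from 48.4% to 68.4% at 13 h and from 49.6% to 63.8% at 25 h. The CYPs were 11 of 17 lower and none higher at 25 h, while 3 of 10 GSTs were higher and none lower. Between 13 h and 25 h, 3 members were higher and 5 lower, against 2.03% and 1.47% of genes.

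The response differed between the classes for some members. The interaction of class and group, tested over 10458 genes with each sample as a block, was called for 4 of 66 members downward in goblet cells and 2 upward at 13 h, and 11 and 4 at 25 h. Of all genes 3.33% and 1.48% were called in those directions at 13 h, and 4.5% and 2.55% at 25 h. At 13 h the upward calls fell to 0 without DMSO replicate 2 or 13 h replicate 1, and at 25 h the downward calls to 5 without DMSO replicate 2. Gstp3 rose in both classes, and more in goblet cells, from 12.6 and 16.5 CPM to 44 and 52.2 CPM and then 105 and 116 CPM. That was 1.71 ± 0.25 and 2.91 ± 0.21 on the log2 scale, and the difference was 1.22 at 25 h (adjusted p = 0.00061). Gstp1 and Gstp2, not called in enterocytes, were higher at 25 h in goblet cells: Gstp1 from 68.1 and 112 CPM to 177 and 154 CPM, and Gstp2 from 55.4 and 85.7 CPM to 141 and 103 CPM.

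Adh6a fell further in goblet cells, from 94.9 and 163 CPM to 14.7 and 16.5 CPM at 13 h and 21.6 and 25.8 CPM at 25 h, with a difference of −1.30 at 13 h (adjusted p = 0.0006) and −0.86 at 25 h (adjusted p = 0.0062). Cyp4f14 fell from 471 and 563 CPM to 303 and 286 CPM and then 189 and 150 CPM. Cyp2j6, higher at 25 h in enterocytes, was lower in goblet cells, from 98.3 and 146 CPM to 89.3 and 61 CPM (−0.69 ± 0.19), and Cyp3a13 likewise (−0.47 ± 0.14). Gsto1, lower in enterocytes, was not called in goblet cells, at 505 and 510, 462 and 471, and 538 and 516 CPM. Goblet markers in goblet cells summed to 197536 and 183959 CPM (unscaled) in DMSO, 113751 and 121929 after 13 h, and 79803 and 96242 after 25 h. That moves with treatment, and its part in these results was not tested.

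**Figure D4:**
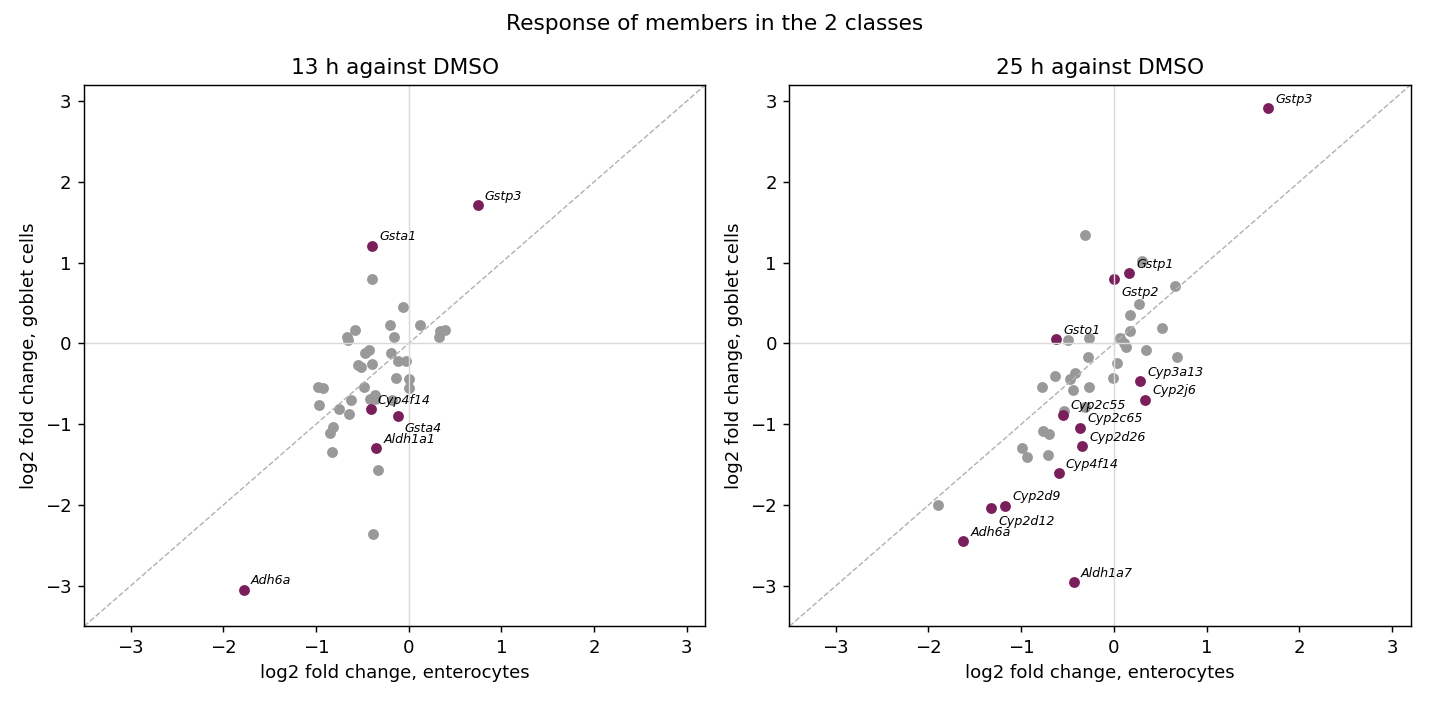
Log2 fold change in goblet cells (y axis) against that in enterocytes (x axis) at 13 h (left) and 25 h (right) for the members tested in both, with named purple points where the interaction was called and a dashed line of equal change. Gstp3 lies above the line at both times, and Cyp2j6 and Cyp3a13 lie right of 0 and below it at 25 h.

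Genes around the enzymes were counted from lists chosen for this tissue. Of all genes tested in enterocytes, 23.8% were higher and 23.8% lower at 13 h, and 26.1% and 24.2% at 25 h. The list of cofactor supply covers mainly sulfate, glucuronic acid and glutathione, and also other genes such as Slc35b1. Of its 17 tested genes, 4 were higher and 12 lower at both times in enterocytes. Slc35b1, the ATP carrier of the ER membrane, rose by 1.94 and 1.73, and the cystine carrier Slc7a11 by 2.74 and 2.19. Ugdh, which makes the glucuronic acid donor, stood at −0.74 and −0.97, and Gclm, of glutathione synthesis, at −0.79 and −0.74, both called. Of 25 electron donors and other oxidoreductases, 2 were higher and 16 lower at 13 h and 7 and 13 at 25 h: Fmo5 at −1.50 and −1.32, Mgst3 at −1.09 and −0.95, and Akr1c19 at 1.14 and 1.80. Of 13 transporters, 2 were higher and 9 lower at 13 h and 3 and 5 at 25 h, with the peptide carrier Slc15a1 at −1.22 and −1.54 and the efflux pump Abcb1a at 0.33 and 0.39.

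Transcription factors that sense foreign compounds or run metabolism were counted likewise, beside the same shares of all genes. Of 25, 2 were higher and 10 lower at 13 h, and 5 and 10 at 25 h. Ppargc1a, a coactivator of metabolic genes, was lower by 0.87 and 0.60 (log2 changes −0.87 and −0.60). Of 13 retinoid genes outside the symbols, 3 were higher and 5 lower at 13 h, and 5 of each at 25 h, with the retinaldehyde reductase Dhrs3 at −1.09 and −1.04 and Rdh10 at 0.41 and 0.33. The medians of these lists lay between −0.41 and −0.12 at 13 h, beside 0.01 for all genes, and between −0.42 and −0.03 at 25 h, beside 0.03. At 25 h they were −0.42 for cofactor supply, −0.22 for oxidoreductases, −0.24 for transporters, −0.09 for transcription factors and −0.03 for retinoid genes.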

How the data were processed

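The authors deposited a matrix of raw UMI counts for 27998 genes in 5122 cells, with the library and the class in each cell name. Cell Ranger and the mm10 build are named in the submitters' processing notes. Its version, the choice of cells and the way classes were assigned: not given in the sources used here. Libraries were made with 10x 3' V2 chemistry, per the labels' protocols, so reads come from transcript ends. Libraries shared 12 barcodes.

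Kept cells had 1000 UMIs and 500 genes or more and no more than 25% mitochondrial UMIs, which removed 96. Doublets were not removed here. Counts were summed per sample and class, since cells are not replicates. All 6 sums of a class entered a single fit in edgeR 4.0.16 (R 4.3.3), with filterByExpr, TMM scaling, the quasi-likelihood F test, group as the only term and Benjamini-Hochberg adjustment at 0.05. CPM are from TMM-scaled sums and errors are SE of the fit. The p-values set each group difference against the spread between these libraries. Since the number of animals is not given, they do not speak for the spread between mice. DESeq2 1.42.0 was an alternative. The test was checked on simulated data.

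Symbols and coordinates came from GENCODE on GRCm38 and promoters from RefSeq on GRCm38.p6. Values per library were given by rule for, in each family, the 3 most abundant members, the 2 lowest and the highest fold at 25 h among members of 20 CPM or more, every member called higher, those beside the UMI minimum, and Aldh18a1 and Aldh1l2. From each companion list, genes were named only among the 4 with the lowest adjusted p at 25 h, with fold changes alone. Genes outside that rule (Cyp1a1, Aldh1l1, Gstp2, Gsta1, Cyp1b1, Cyp2d22, Cyp2d34, Cyp2d26, Cyp4f16, Ugt2b1, Ces2c, Ces2d-ps, Ces2f, Ces2g, Aldh1a7) were named after their values were seen. Members and lists were chosen with earlier results of these data known.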

Additional observations from a re-analysis of the deposited data

Results flagged for a closer look

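The response to tunicamycin differed between goblet cells and enterocytes, by the edgeR interaction test with Benjamini-Hochberg adjustment over all genes, for the members named here. Values are the goblet response minus the enterocyte response on the log2 scale. At 13 h the response was lower in goblet cells for Adh6a (−1.3), Aldh1a1 (−0.97), Gsta4 (−0.82) and Cyp4f14 (−0.44), and higher for Gstp3 (0.94) and Gsta1 (1.55). At 25 h it was lower for Aldh1a7 (−2.62), Cyp2j6 (−1.07), Cyp4f14 (−1.05), Cyp2d26 (−0.96), Cyp2d9 (−0.88) and Adh6a (−0.86). It was also lower for Cyp3a13 (−0.79), Cyp2d12 (−0.76), Cyp2c65 (−0.72) and Cyp2c55 (−0.39), and higher for Gsto1 (0.64), Gstp1 (0.67), Gstp2 (0.75) and Gstp3 (1.22). The fit gave −7.21 for Aldh1l1, which had no UMI in either 25 h goblet sum, so that value depends on the prior count and is no bound. Aldh1a7 had 82 UMIs over all 6 goblet sums, and Gsta1 had 245. In DMSO replicate 2, 10 of 1037 enterocytes held 67.4% of the Gsta1 UMIs, so its value rests in part on few cells.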

How the results depend on the processing

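In enterocytes no named member changed direction where the main fit or the alternative called it. Changes of sign where neither called it were not counted. The counts of lower members in enterocytes stayed within 1.5 times at 13 h (39 to 53) and 25 h (34 to 40). With DESeq2 the members called were 6 higher at 25 h in enterocytes in place of 11, 7 lower from 13 h to 25 h in place of 11, and in goblet cells 8 lower at 13 h in place of 18 and 2 lower from 13 h to 25 h in place of 5. The interaction at 13 h was called upward for 5 members with total UMIs and 4 with RLE size factors in place of 2. The cause was not tested.

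Leaving out each library in turn gave 7 to 10 higher members in enterocytes at 25 h (7 without DMSO replicate 1 or 25 h replicate 2) and 5 to 10 lower from 13 h to 25 h (5 without 13 h replicate 1, 7 without 25 h replicate 2). In goblet cells it gave 1 to 2 higher at 13 h (1 without 13 h replicate 1), 2 to 5 higher at 25 h (2 without DMSO replicate 1), 1 to 4 higher (1 without 25 h replicate 1) and 3 to 5 lower (3 without 25 h replicate 2) from 13 h to 25 h. The interaction at 13 h gave 0 to 5 upward and 1 to 7 downward, so it rests on single libraries (0 upward without DMSO replicate 2 or 13 h replicate 1, 1 without DMSO replicate 1 or 13 h replicate 2, 5 without 25 h replicate 1; downward 2 without DMSO replicate 1, DMSO replicate 2 or 13 h replicate 1, 1 without 13 h replicate 2 and 7 without 25 h replicate 2), and that at 25 h 5 to 11 downward (5 without DMSO replicate 2). A lone sample was assumed to vary like the other groups.

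With the replicate number as a block, 45 members were lower and 4 higher at 13 h in enterocytes, and 39 and 10 at 25 h. The labels do not say that the numbers pair the samples. Differences between replicates 1 and 2 correlated between groups at −0.085 to 0.008 in enterocytes and −0.057 to 0.021 in goblet cells. With 1 difference per group, this cannot show whether samples of the same number share a batch. Unthinned shares of cells with a UMI were higher at every group for Adh6a, Ces2e and Gstp3. Goblet sums of 75 to 109 cells per library limit what could be called there.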
